A study of Homo sapiens with 6 samples.

Results

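Checkpoint ligands are proteins with which tumor cells restrain the immune cells that meet them, and their genes were followed here in SW839, an established renal cell carcinoma line, after knockdown of the E3 ubiquitin ligase RNF25. The set holds 10 genes, taken by symbol from the 30267 genes of the deposited table, and all 10 had a row. They are CD274, PDCD1LG2, CD276, VTCN1, NT5E, LGALS9, PVR, NECTIN2, CD47 and IDO1. Total RNA was sequenced from 3 libraries of cells carrying a hairpin against RNF25 (shRNF25) and from 3 libraries carrying the pLKO control (shControl), and all 6 come from the same line. According to the study's methods, the hairpins were delivered by lentivirus, infected cells were selected with puromycin, and ribosomal RNA was depleted before sequencing. The library names of the knockdown group carry a single hairpin letter, so that the loss of RNF25 and anything else this hairpin does cannot be told apart. The labels give no culture or sequencing batch, and one that followed the groups could not be told apart from the knockdown. The knockdown libraries share a name with running numbers, whereas the control libraries are named in unlike ways, and what this stands for is not given. The treatment text of all 6 samples, controls included, speaks of the shRNF25 plasmid, and the groups therefore rest on the titles, genotypes and library names.

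PD-L1 (CD274) and PD-L2 (PDCD1LG2) bind the receptor PD-1 on T cells and dampen T cell receptor signaling. B7-H3 (CD276) and B7-H4 (VTCN1) are relatives of these ligands in the B7 family, whose receptors are less well defined. CD155 (PVR) and CD112 (NECTIN2) are adhesion proteins that engage the inhibitory receptor TIGIT and the activating receptor CD226. CD73 (NT5E) is a cell surface enzyme that releases immunosuppressive adenosine from AMP, and IDO1 starts the breakdown of tryptophan to kynurenine. Galectin-9 (LGALS9) is a sugar-binding protein and a ligand of TIM-3, and CD47 binds SIRPα on macrophages and restrains phagocytosis. Several of these genes are known targets of interferon-γ, NF-κB or hypoxia signaling. No immune cells or cytokines were added to the cultures as far as the labels say, so the values describe the unstimulated tumor line.

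The DNA just upstream of 3 members that fell after the knockdown is shown so that the start sites can be compared. The sequences are the 250 bases before the RefSeq transcript start (GRCh38.p14, plus strand) of CD274 (chr9:5450292-5450541), of the later of both listed starts of CD276 (chr15:73684520-73684769) and of NT5E (chr6:85449833-85450082). Capitals mark matches on either strand to 4 motifs, namely the NF-κB consensus, an interferon-type motif (GAAA, any 2 bases, GAAA), the STAT-type motif TTCNNNGAA and the core of the hypoxia response element ACGTG.
CD274: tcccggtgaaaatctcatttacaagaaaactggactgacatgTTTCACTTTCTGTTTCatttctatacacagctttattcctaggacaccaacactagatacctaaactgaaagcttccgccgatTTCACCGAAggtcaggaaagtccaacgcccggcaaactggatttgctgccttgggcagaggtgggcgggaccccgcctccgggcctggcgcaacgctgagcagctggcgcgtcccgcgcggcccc
CD276: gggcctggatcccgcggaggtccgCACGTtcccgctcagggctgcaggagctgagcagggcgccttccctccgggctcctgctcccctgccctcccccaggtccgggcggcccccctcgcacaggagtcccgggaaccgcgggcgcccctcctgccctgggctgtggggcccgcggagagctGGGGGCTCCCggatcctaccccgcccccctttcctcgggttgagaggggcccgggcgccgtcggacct
NT5E: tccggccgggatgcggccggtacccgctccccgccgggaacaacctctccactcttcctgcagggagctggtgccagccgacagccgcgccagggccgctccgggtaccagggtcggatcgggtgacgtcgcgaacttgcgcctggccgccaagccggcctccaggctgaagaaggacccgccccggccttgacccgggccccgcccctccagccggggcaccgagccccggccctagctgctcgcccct
CD274 held 2 overlapping matches to the interferon-type motif, which began 208 and 202 bases before the start, and 1 match to the STAT-type motif at 125 bases. Among 35116 RefSeq windows of the same length, 3.02% held the interferon-type motif and 6.57% the STAT-type motif. CD276 held 1 match to the NF-κB consensus, 68 bases before the later start, and 1 to the hypoxia core at 226 bases, which 9.96% and 18.5% of all windows hold. The window of NT5E held none of the 4 motifs, and neither did the window of the earlier CD276 start. Among the other members, a window was listed for VTCN1, LGALS9, PVR, NECTIN2 and CD47, and the single match in these was a hypoxia core 223 bases before the start of CD47. A match is a description of the letters and not a binding site.

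RNF25, the target of the hairpin, averaged a normalized count of 588 ± 92.0 across the 3 control libraries and 242 ± 25.7 across the 3 knockdown libraries (mean ± SD), or 41.1% of control, and its groups did not overlap. The libraries held 18647460 to 19943154 reads on genes. The control libraries resembled each other less (Pearson correlations across genes of 0.976 to 0.988) than the knockdown libraries did (0.994 for each pair), and shControl replicate 1 had the 2 lowest values among its group. The line expressed the epithelial genes KRT8, KRT18, KRT19, EPCAM and CDH1 at normalized counts of 4205 or more in every library and the renal factor PAX8 at 76.7 to 140.3, whereas CA9, a marker of clear cell carcinoma, lay between 1.85 and 50.7. Of the same list, CDH2 lay at 1470 to 1968 and NDUFA4L2 at 10.5 to 33.5, and PAX2 had no row under its symbol. VIM lay at 203 to 882 and rose (log2 fold change 1.31, adjusted p = 0.00805 from limma). KRT19 (-0.47, adjusted p = 0.0278 from limma) and CDH1 (-0.48, adjusted p = 0.0129 from limma) fell, and the other 6 tested genes of the list did not pass. The leukocyte gene PTPRC lay between 3.81 and 14.6, and the summed counts of 9 T and NK cell markers were 27.6 to 28.7 in shControl and 28.6 to 40.1 in shRNF25. The corresponding sums were 61.9 to 74.5 and 70.2 to 95.7 for 10 myeloid markers, and 17.3 to 17.7 and 26.4 to 30.5 for 4 B cell markers. LCP1 and CORO1A, often used as leukocyte markers, were expressed by these cultures and fell with the knockdown, at log2 fold changes of -0.73 and -1.27. No marker of these lists was at 0 in every library. Summed endothelial markers lay at 498 to 700.5 in shControl and 498 to 651 in shRNF25, most of it from PECAM1. Within this list CDH5 fell from 73.0, 102.6 and 199 to 3.64, 8.31 and 5.72, meeting the filter through shControl alone, and KDR rose from 26.5, 29.8 and 17.3 to 88.4, 81.3 and 83.9 (log2 fold change 1.78, adjusted p = 0.00116 from limma). Summed fibroblast markers lay at 1163 to 1344 and 930.0 to 1075, most of it from COL1A1, which fell (log2 fold change -0.37, adjusted p = 0.0479 from limma). COL1A2 and DCN of that list had at most 2 reads per library.

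All 10 checkpoint ligand genes were lower on average in shRNF25 than in shControl, a direction taken by 51.2% of all tested genes, with 48.8% on the other side. NT5E, PDCD1LG2, CD274 and CD276 fell past an adjusted p of 0.05 in limma, none rose, and the other 6 did not reach the threshold. At this threshold 10.8% of the 16554 tested genes were lower and 10.5% were higher. With a fold change of at least 1.5 added, NT5E, PDCD1LG2 and CD274 remained, beside 7.1% of all tested genes that were lower and 8.65% that were higher. The median log2 fold change was -0.70 over the 10 members and -0.01 over all tested genes. The filter on low values asked for 10 in at least 3 libraries, which VTCN1 met through shControl alone, and without it the median of the other 9 was -0.54. In each of the 10 members, every shRNF25 library lay below every shControl library, a separation in this direction that 21.8% of tested genes showed, against 20.7% in the other. Each member therefore had a two-sided exact permutation p of 0.1, the smallest that 3 libraries against 3 allow. For VTCN1 the direction and the separation were set by the filter, so that its p carries no weight. The other 9 were all lower and all apart. The members were chosen with earlier results of these data known, so that these counts are a description of the set. These log2 fold changes are on the log2(normalized count + 1) scale, and p-values measure the spread between these libraries, which the series calls biological triplicates. In such bulk RNA, less RNA per cell and fewer cells that carry a transcript cannot be told apart.

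**Figure D1:**
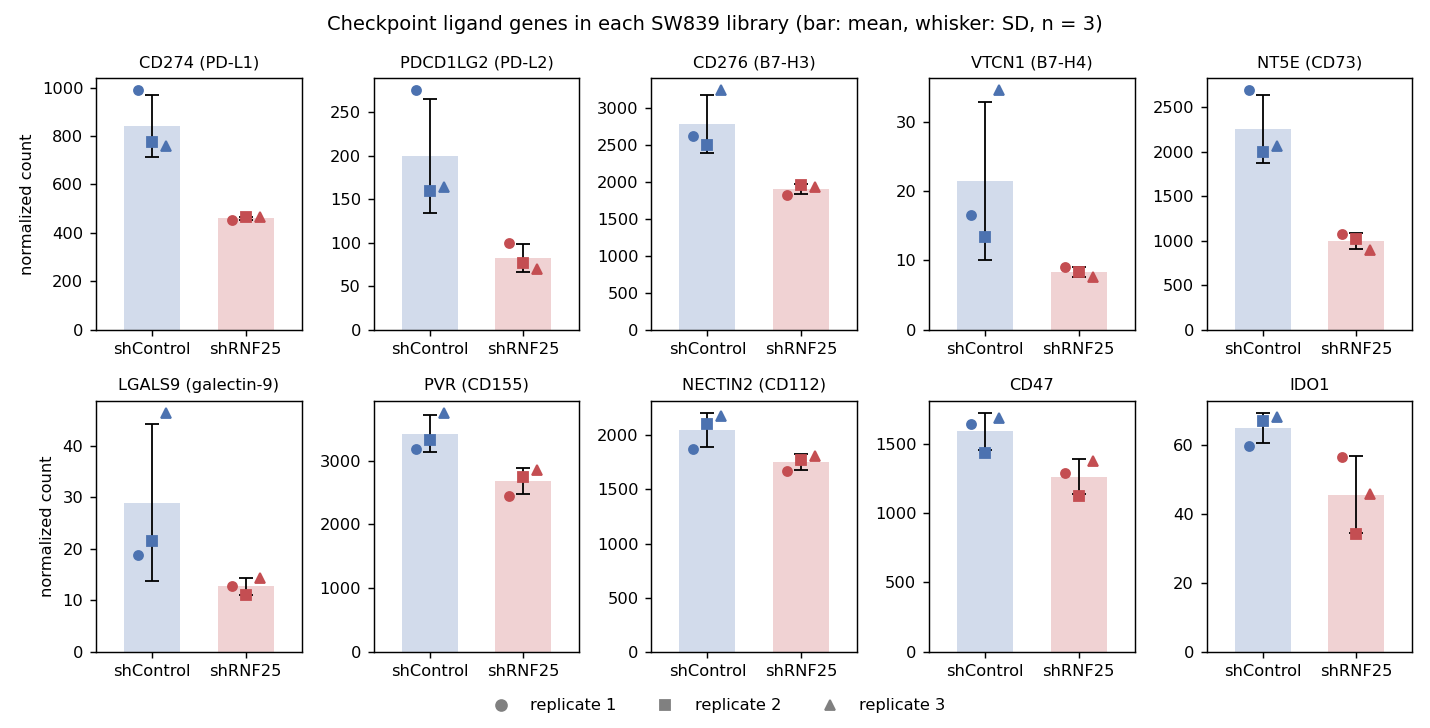
Normalized counts (vertical axes, from 0) of the 10 genes in the 3 shControl and 3 shRNF25 libraries, with a marker for each replicate, bars for the mean and whiskers for the SD (n = 3). All shRNF25 points lie below all shControl points in every panel, for example at 56.5 against 59.7 for the nearest libraries of IDO1.

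The separation depended in part on how the libraries were scaled. The deposited values were divided by size factors of 0.905 to 0.975 in shControl and 1.05 to 1.10 in shRNF25, although the totals of reads were alike. When the libraries were instead scaled to their total reads, an analysis chosen after seeing the data, the median log2 fold change of all genes moved to 0.19, with 945 genes lower and 3260 higher (77.5% of calls higher, against 49.4% with the deposited scaling). All 10 members still had a log2 fold change below 0, and NT5E (-0.95), PDCD1LG2 (-1.03) and CD274 (-0.65) still passed, where 5.7% of tested genes were lower. CD276 did not (-0.34, adjusted p = 0.0900). The groups were still apart in 6 members, namely CD274, PDCD1LG2, CD276, VTCN1, NT5E and LGALS9, against 10.8% of tested genes, and PVR, NECTIN2, CD47 and IDO1 overlapped. VTCN1 is counted here although, with the deposited scaling, it met the filter through shControl alone. Relative to the median of all genes on that scale, the changes were -0.84 for CD274, -1.23 for PDCD1LG2, -0.53 for CD276, -1.15 for NT5E and -0.21 for NECTIN2, close to those with the deposited scaling. The falls in CD274, PDCD1LG2 and NT5E passed on either scale, and the separation of PVR, NECTIN2, CD47 and IDO1 was seen with the deposited scaling and not with this one.

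**Figure D2:**
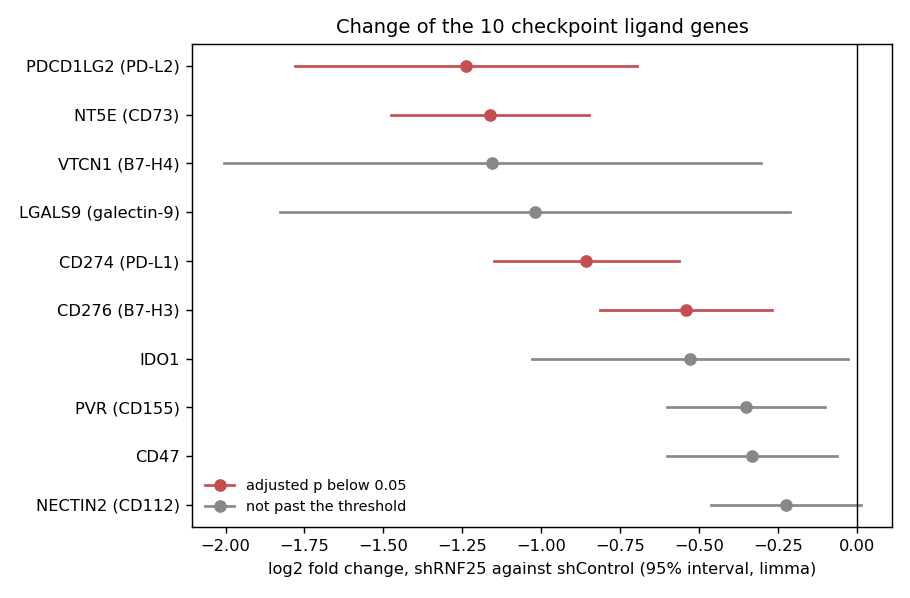
Log2 fold change of each gene in shRNF25 against shControl (horizontal axis) with limma's 95% interval, not adjusted for the number of genes, in red where the adjusted p was below 0.05. All 10 estimates lie left of 0, from -1.24 for PDCD1LG2 to -0.22 for NECTIN2, whose interval alone reaches past 0.

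Both PD-1 ligands fell. CD274 lies on chromosome 9 from 5450503 to 5470566 and PDCD1LG2 from 5510570 to 5571254 (GENCODE 29, GRCh38, both on the plus strand), with 40003 bases between them. CD274 had normalized counts of 988, 777 and 759.8 in shControl and of 454, 464 and 465 in shRNF25. The 3 knockdown libraries lay within a narrow band at 54.8% of the control mean, and shControl replicate 1 was the highest. This is a log2 difference of -0.86 ± 0.13 (standard error), with an adjusted p of 0.00214 in limma. PDCD1LG2 was the less abundant, at 275, 159 and 164 in shControl and 100.2, 76.7 and 69.6 in shRNF25. It fell to 41.2% of control, with the widest relative spread between control libraries among the 4 members that fell (SD 32.9% of the mean), again with shControl replicate 1 highest. Its log2 difference was -1.24 ± 0.24 (standard error), with an adjusted p of 0.00684 in limma, and it was -0.98 without shControl replicate 1. Both stayed past the threshold when any single library was left out.
The within-library log2 ratio of CD274 to PDCD1LG2 shows whether one ligand moved further than the other, and no scaling changes it beyond the added 1. It averaged 2.11 ± 0.24 in the control and 2.49 ± 0.29 in the knockdown libraries (mean ± SD, n = 3 each). The difference of 0.38 did not exceed the spread between libraries (two-sided exact permutation test, p = 0.3), so that a larger fall of PD-L2 than of PD-L1 was not resolved with 3 libraries a group.
The coding genes within 250000 bases of this pair did not move as a block. RIC1 fell slightly (log2 fold change -0.40, adjusted p = 0.0316 from limma) and ERMP1 rose (0.41, adjusted p = 0.0203 from limma). PLGRKT, whose gene lies next to CD274, was at -0.25 (adjusted p = 0.238 from limma), and RLN1, RLN2 and INSL4 had too few reads to be tested. JAK2, a further gene of this chromosome arm, was at 0.31 (adjusted p = 0.225 from limma).
Over the 6 libraries, the tested genes whose centered log2 profile lay closest to that of CD274 were EFNB2, CLDN12 and CREB3L2, with root mean square differences of 0.043, 0.052 and 0.053 on the log2 scale. The nearest other member was NT5E at 0.18. EFNB2, which encodes the membrane ligand ephrin-B2, went from 744, 625 and 561 in shControl to 361, 353 and 360.3 in shRNF25, and so shared with CD274 both the high shControl replicate 1 and the narrow knockdown band. With 6 libraries in 2 groups such a likeness mostly restates the group difference.

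Of the B7 relatives, CD276 fell and VTCN1 was barely expressed. CD276, on chromosome 15 from 73683966 to 73714518, had 2613, 2498 and 3234 in shControl and 1819.6, 1955 and 1922 in shRNF25, with shControl replicate 3 highest. It fell by 0.54 ± 0.12 (standard error) on the log2 scale, to 68.3% of control, with an adjusted p of 0.0129 in limma, and did not reach a fold change of 1.5. Without shRNF25 replicate 1, 2 or 3 the adjusted p was 0.0799, 0.0589 and 0.0657, so that the call needed all 3 knockdown libraries. VTCN1, on chromosome 1 from 117143587 to 117210960, had 15, 13 and 32 reads in the control libraries and 10, 9 and 8 in the knockdown libraries. Its log2 fold change of -1.15 (standard error 0.38), with an adjusted p of 0.0580 in limma, rests on these few reads. The gene entered the test through the control libraries alone, since every knockdown library lay below the minimum of 10, so that it had to be lower in shRNF25, and shControl replicate 3 alone held more than the other 2 control libraries together.

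The ligands of TIGIT and CD226 moved little. PVR, on chromosome 19 from 44643798 to 44663583, had 3191, 3328 and 3757 in shControl and 2452, 2745 and 2856 in shRNF25. Its log2 fold change was -0.35 (95% interval -0.60 to -0.10, adjusted p = 0.0519 from limma), at the edge of the threshold, and DESeq2 on the recovered reads gave -0.34 with an adjusted p of 0.0400. NECTIN2, on the same chromosome from 44846175 to 44889228, had 1869, 2105 and 2176 in shControl and 1674, 1775 and 1809 in shRNF25. The change was -0.22 (95% interval -0.46 to 0.01, adjusted p = 0.162 from limma), the smallest of the 10. Without shControl replicate 1, which had the lowest control value of both genes, PVR was at -0.40 (adjusted p = 0.00834 from limma) and NECTIN2 at -0.29 (adjusted p = 0.0131 from limma).
The log2 ratio of PVR to NECTIN2 within a library averaged 0.74 ± 0.07 in the control and 0.61 ± 0.06 in the knockdown libraries (mean ± SD, n = 3 each), lower in all 3 knockdown libraries. The difference of -0.13 had an exact permutation p of 0.1, two-sided, the smallest that the design allows. Of the 5 coding genes with a row between PVR and NECTIN2, BCL3, an IκB family member that binds p50 and p52, fell by 0.55 on the log2 scale (adjusted p = 0.0126 from limma). CBLC, a ubiquitin ligase of receptor kinases, fell by 0.92 (adjusted p = 0.00115 from limma). BCAM, a laminin receptor, rose (0.91, adjusted p = 0.000357 from limma), so that the stretch between both ligand genes held changes of either sign. CEACAM19 was at -0.24 (adjusted p = 0.389 from limma) and CEACAM16 had at most 1 read per library.

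NT5E had the smallest adjusted p of the 10. It lies on chromosome 6 from 85449584 to 85495791 and had normalized counts of 2692, 1996 and 2070.1 in shControl and 1079.8, 1019.6 and 901 in shRNF25. The groups were far apart, with shControl replicate 1 highest. It fell by 1.16 ± 0.14 (standard error) on the log2 scale, to 44.4% of control, with an adjusted p of 0.000656 in limma, and it stayed between -1.24 and -1.03 when single libraries were left out. IDO1, on chromosome 8 from 39902275 to 39928444, was expressed at a low level, with 54 to 65 reads in the control libraries and 37 to 62 in the knockdown libraries. Its normalized counts were 59.7, 66.7 and 68.0 against 56.5, 34.2 and 45.8, with a narrow gap between the groups. The change of -0.53 (95% interval -1.03 to -0.03) had an adjusted p of 0.124 in limma.
Further along both metabolic routes, 4 of 15 tested genes fell, 1 rose and 10 did not pass the threshold, beside 10.8% lower and 10.5% higher among all tested genes. The median log2 fold change of the list was -0.04. KYNU and KMO, enzymes that act on kynurenine below IDO1, both fell. KYNU went from 191, 195 and 352 in shControl to 40.1, 36.9 and 32.4 in shRNF25, which is -2.67 ± 0.25 (standard error) on the log2 scale, with an adjusted p of 0.000176 in limma. KMO was at -0.71 (adjusted p = 0.0177 from limma), a call lost without shRNF25 replicate 2 (0.0969) or 3 (0.0706) and with scaling to total reads (0.0648). TDO2, which opens the same route, and IDO2 had at most 1 read per library. AHR, a receptor for kynurenine, was at -0.46 (adjusted p = 0.0614 from limma).
On the adenosine side, the genes that make and remove adenosine differed. ENTPD1, which supplies AMP to CD73, was low at 39.9 to 54.2 and was at 0.15 (adjusted p = 0.632 from limma). ENTPD2, ENTPD3 and ENPP1 of the same list lay at 176 to 207, 165 to 262 and 112 to 221. Their log2 fold changes were -0.10, -0.36 and 0.53 (adjusted p = 0.627, 0.127 and 0.120 from limma). ADA, which breaks adenosine down, fell from 371, 587 and 549 to 255, 244 and 229, a log2 fold change of -1.02 (adjusted p = 0.00412 from limma). DPP4, a surface peptidase that anchors adenosine deaminase, rose from 176, 122 and 133 to 426, 372 and 385, a log2 fold change of 1.47 (adjusted p = 0.000451 from limma). SLC29A1, an adenosine transporter, also fell (-0.55, adjusted p = 0.00564 from limma), and the receptor ADORA2B was at 0.09 (adjusted p = 0.617 from limma). CD73 and ADA transcripts, which act in opposite directions on adenosine, were thus both lower in the knockdown cells.

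CD47 was at an intermediate level in both groups. It lies on chromosome 3 from 108043094 to 108091862 and had 1645, 1435 and 1688 in shControl and 1290.2, 1126 and 1373 in shRNF25. The log2 fold change was -0.33 (95% interval -0.60 to -0.06, adjusted p = 0.0778 from limma), and it passed in a single fit of those run, without shControl replicate 1 (-0.31, adjusted p = 0.0489 from limma). Of 7 genes for CD47 partners and other phagocytosis signals, 5 fell and none rose, or 4 of 6 without SIRPG, which met the filter through shControl alone, beside 10.8% of all tested genes that were lower. The largest in level was THBS1, a secreted ligand of CD47, which went from 52248, 63256 and 60772 in shControl to 14708, 15817 and 15662 in shRNF25 (log2 fold change -1.93, adjusted p = 1.7e-05 from limma). CD24, a ligand of Siglec-10 that also restrains phagocytosis, went from 4559 to 5262 down to 2625 to 2893 (log2 fold change -0.81, adjusted p = 0.00100 from limma). SIRPG, a relative of SIRPα, fell from 16 to 20 reads per library to 3 to 6 reads (log2 fold change -2.04, adjusted p = 0.00383 from limma). SIRPA itself was at -0.41 (adjusted p = 0.0321 from limma). CALR, whose product promotes phagocytosis at the surface, was at -0.46 (adjusted p = 0.0351 from limma), but was at -0.12 (adjusted p = 0.488 from limma) after quantile normalization and passed in 7 of 16 other analyses. The list of CD47 partners, like the other lists here, was chosen with earlier results of these data known, so that its counts are a description.
LGALS9, on chromosome 17 from 27629798 to 27649560, had 18.8, 21.5 and 46.4 in shControl and 12.8, 11.1 and 14.3 in shRNF25. The log2 fold change of -1.02 (95% interval -1.83 to -0.21, adjusted p = 0.0734 from limma) rests on 12 to 43 reads per library, and without shControl replicate 3, the highest, it was -0.63. Without shControl replicate 1 it was -1.26 (adjusted p = 0.0232 from limma). Cut into words of 50 bases, its transcripts share 13.2% of them with transcripts of other genes, most of them with LGALS9C, AC015688.4, LGALS9DP and LGALS9B, so the counting could have lost or exchanged reads. The rows of LGALS9B and LGALS9C held at most 2 reads per library. For the other 9 members this share was between 0% and 3.14%.

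Between genes, levels were compared as normalized count per kilobase of merged exon, a scale on which PVR led in both groups. The order in shControl was PVR (973 ± 83.8), NECTIN2 (547 ± 42.8), CD276 (502 ± 71.4), NT5E (497 ± 84.3), CD274 (205 ± 31.0), CD47 (193 ± 16.4), PDCD1LG2 (84.3 ± 27.8), IDO1 (19.9 ± 1.37), VTCN1 (7.10 ± 3.77) and LGALS9 (5.06 ± 2.66), each as mean ± SD with n = 3. The libraries of NECTIN2, CD276 and NT5E overlapped, as did those of CD274 with CD47 and those of VTCN1 with LGALS9, so these neighbors were not separated beyond their spread. In shRNF25 the levels were 763 for PVR, 468 for NECTIN2, 343 for CD276, 221 for NT5E, 154 for CD47, 112 for CD274, 34.7 for PDCD1LG2, 13.9 for IDO1, 2.76 for VTCN1 and 2.22 for LGALS9. NT5E was now below NECTIN2 and CD276 in every library, and CD274 (110.5 to 113) was below CD47 (137 to 167). The ranks of CD274 and CD47 had thus changed places, while the other ranks were the same. The exon lengths, from 2365 bases for PDCD1LG2 to 8225 bases for CD47, merge all annotated transcripts, so a gene with long exons that are seldom used reads low on this scale.

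**Figure D3:**
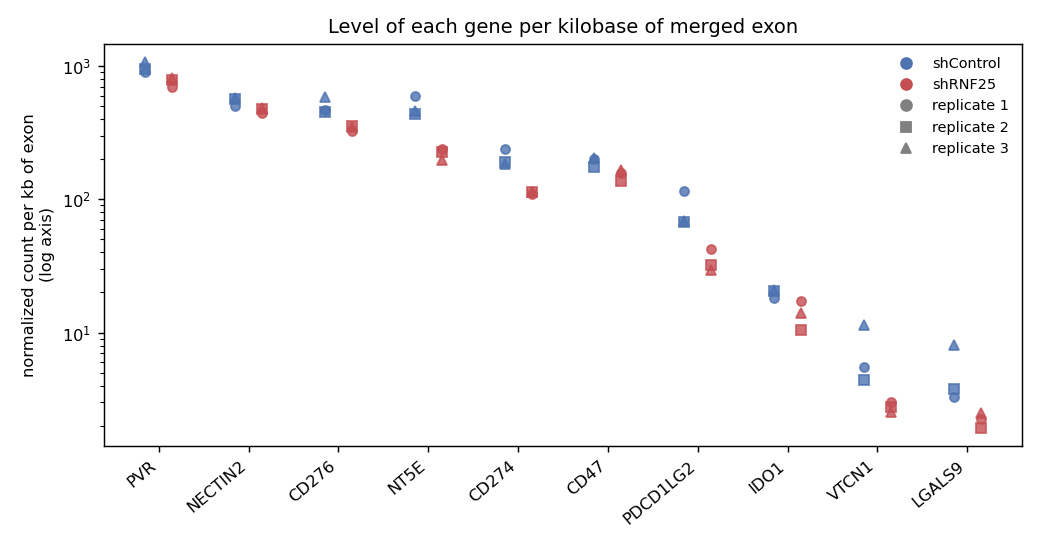
Normalized count per kilobase of merged exon (log axis) for each gene in each library, ordered by the shControl mean, with a marker for each replicate. The genes span from PVR near 973 down to LGALS9 near 5.06 in shControl, and CD274 lies level with CD47 in shControl and below it in shRNF25.

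Of 17 tested genes for other ligands of co-signalling receptors, 3 fell, 2 rose and 12 did not pass, beside 10.8% lower and 10.5% higher among all tested genes. Their median log2 fold change was 0.17. SIGLEC15, an inhibitory ligand of T cells, rose from 12.2, 11.3 and 11.9 to 47.4, 30.5 and 29.5 (log2 fold change 1.49, adjusted p = 0.00506 from limma). VSIR, the gene of VISTA, an inhibitory B7 relative, went from 178, 303 and 466 to 597, 596 and 562 (log2 fold change 0.99, adjusted p = 0.0364 from limma). The VSIR control libraries differed widely, and the log2 fold change was 0.64 without shControl replicate 1 and 1.33 without replicate 3. The adjusted p was 0.0888 without shControl replicate 2 and between 0.105 and 0.128 without any one shRNF25 library. Among the genes that fell, NECTIN4, a nectin that is also bound by TIGIT, was at -1.09 (adjusted p = 0.00410 from limma) and ICOSLG, which costimulates T cells through ICOS, at -0.89 (adjusted p = 0.0259 from limma). The ICOSLG call was lost without shControl replicate 2 (0.0906) or 3 (0.0664), without shRNF25 replicate 1 (0.108) or 2 (0.110), and with scaling to total reads (0.0843). NECTIN1 and NECTIN3 were at 0.30 (adjusted p = 0.0560 from limma) and 0.32 (adjusted p = 0.235 from limma), whereas PVR, NECTIN2 and NECTIN4 were all below 0.

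Among 7 genes whose products act on the PD-L1 or CD47 protein, SPOP and COPS5 rose, HIP1R fell and 4 did not pass, beside 10.5% higher and 10.8% lower among all tested genes, with a median of -0.10. SPOP, an adaptor that directs PD-L1 to degradation, went from 586 to 683 up to 929 to 1000 (log2 fold change 0.61, adjusted p = 0.00479 from limma). COPS5, which stabilizes PD-L1, was at 0.36 (adjusted p = 0.0367 from limma), and HIP1R, which sends PD-L1 to lysosomes, at -0.58 (adjusted p = 0.0162 from limma). Both calls were lost without shControl replicate 2 (0.0520 and 0.0555) and without any one of shRNF25 replicates 1, 2 and 3 (0.152, 0.141 and 0.169 for COPS5, and 0.0606, 0.0802 and 0.0857 for HIP1R). COPS5 also fell short with no filter on low values (0.0581), and HIP1R with scaling to total reads (0.117). CMTM6, which keeps PD-L1 at the surface, was at 0.34 (adjusted p = 0.0833 from limma). RNA alone does not show the amount of ligand protein.
In the interferon-γ axis, 3 of 11 tested genes fell, none rose and 8 did not pass, beside 10.8% lower and 10.5% higher among all tested genes, with a median of -0.45. IRF2 was at -0.83 (adjusted p = 0.0115 from limma), the receptor subunit IFNGR1 at -0.64 (0.0156) and the kinase JAK1 at -0.54 (0.00681). Without single shRNF25 libraries the adjusted p was up to 0.0645 for IRF2 (replicate 3), 0.0843 for IFNGR1 (replicate 1) and 0.0544 for JAK1 (replicate 2), and with scaling to total reads it was 0.0633 for IFNGR1. IRF1, a transcription factor induced by interferon-γ, had 431, 547 and 773 in shControl and 375, 349 and 476 in shRNF25 (log2 fold change -0.51, adjusted p = 0.116 from limma). Exons of many genes named here, among them IRF1, KMO, THBS1, ENTPD1, CD160 and CMTM6, overlap genes on the other strand, and the strand setting of the counting is not given. STAT3, named here after its values were seen, had at most 4 reads in any library, and its exons overlap no gene on the other strand. Why its counts were so low was not tested, and they do not show that the cells lack its RNA.
Of 13 genes for checkpoint and co-signalling receptors, not all of them receptors of the 10 members, 7 had a row, and 2 could be tested. CD160 was at 1.23 (adjusted p = 0.0270 from limma) on 7 to 14 reads per control library and 27 to 40 per knockdown library, and its call was lost without any one shRNF25 library (0.134, 0.0718 and 0.0935 without replicates 1, 2 and 3). LAG3 was at 0.32 (adjusted p = 0.308 from limma). CD226, CD96, PVRIG, HAVCR2 and BTLA lay at 11.8 or less in every library, and PDCD1, CTLA4, CD28, ICOS, TIGIT and TMIGD2 had no row under these symbols.

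**Figure D4:**
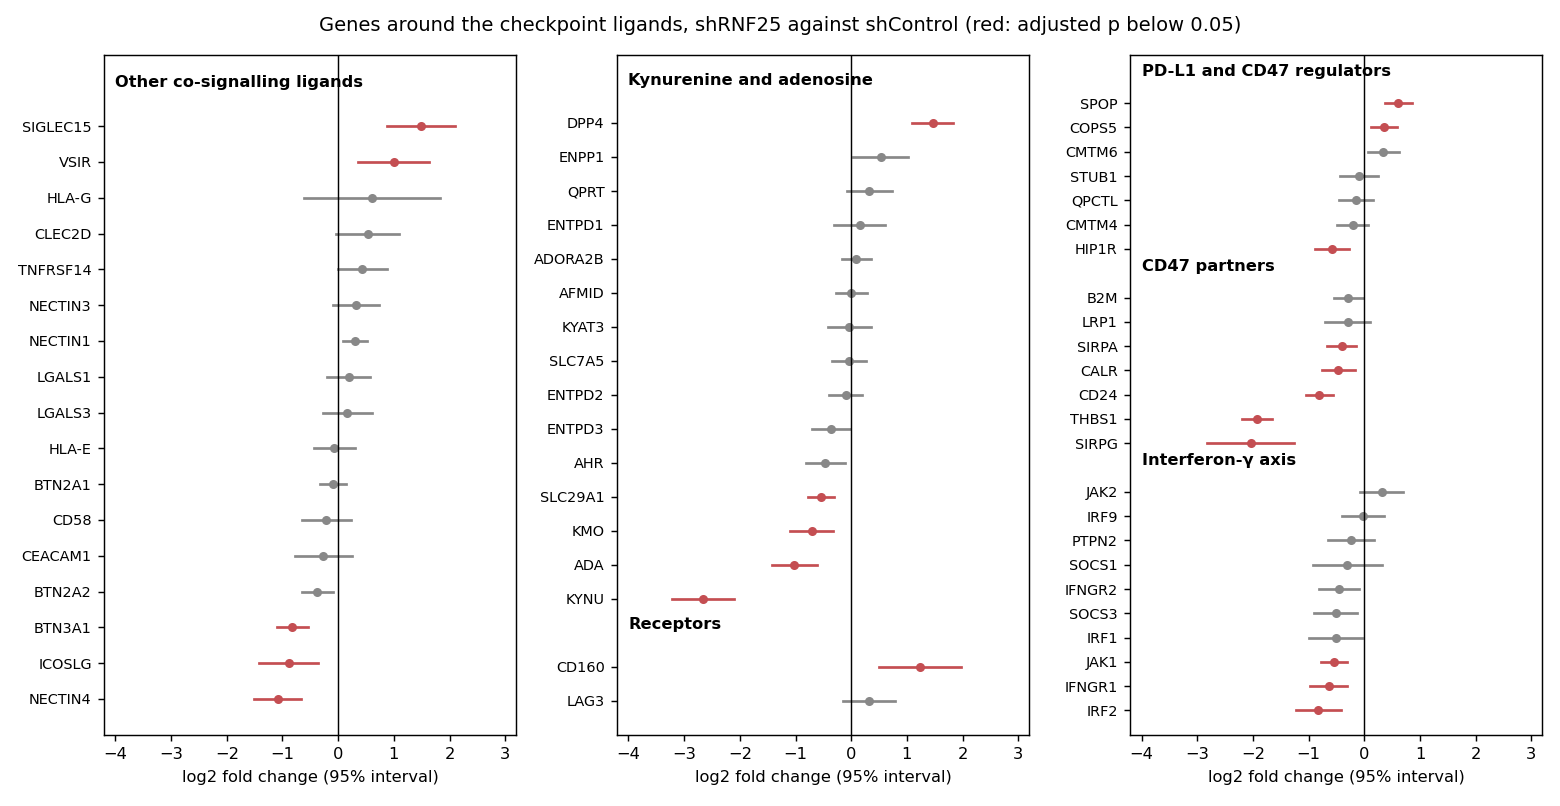
Log2 fold change in shRNF25 against shControl (horizontal axes) with limma's 95% interval for tested genes of 6 lists around the checkpoint ligands, in red where the adjusted p was below 0.05. KYNU (-2.67), SIRPG (-2.04) and THBS1 (-1.93) lie farthest left, and SIGLEC15 (1.49) and DPP4 (1.47) farthest right.

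Across the 16 other analyses, the calls of the members fell into 3 kinds. CD274, PDCD1LG2 and NT5E passed in all 16. CD276 passed in 12 and fell short with scaling to total reads and without any one of shRNF25 replicates 1, 2 and 3. PVR, LGALS9, VTCN1, NECTIN2, CD47 and IDO1 passed in 1 to 3 each, where VTCN1 was tested in only 12 analyses and LGALS9 in 15. VTCN1 passed only with quantile normalization, where it again met the filter through shControl alone. Leaving out shControl replicate 1, the control library least like the others, raised the count of members that passed from 4 to 8, by adding LGALS9, PVR, CD47 and NECTIN2, and raised the count of all lower genes from 1785 to 2915. Without any one shRNF25 library 3 members passed and 826 to 839 genes were lower.

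**Figure D5:**
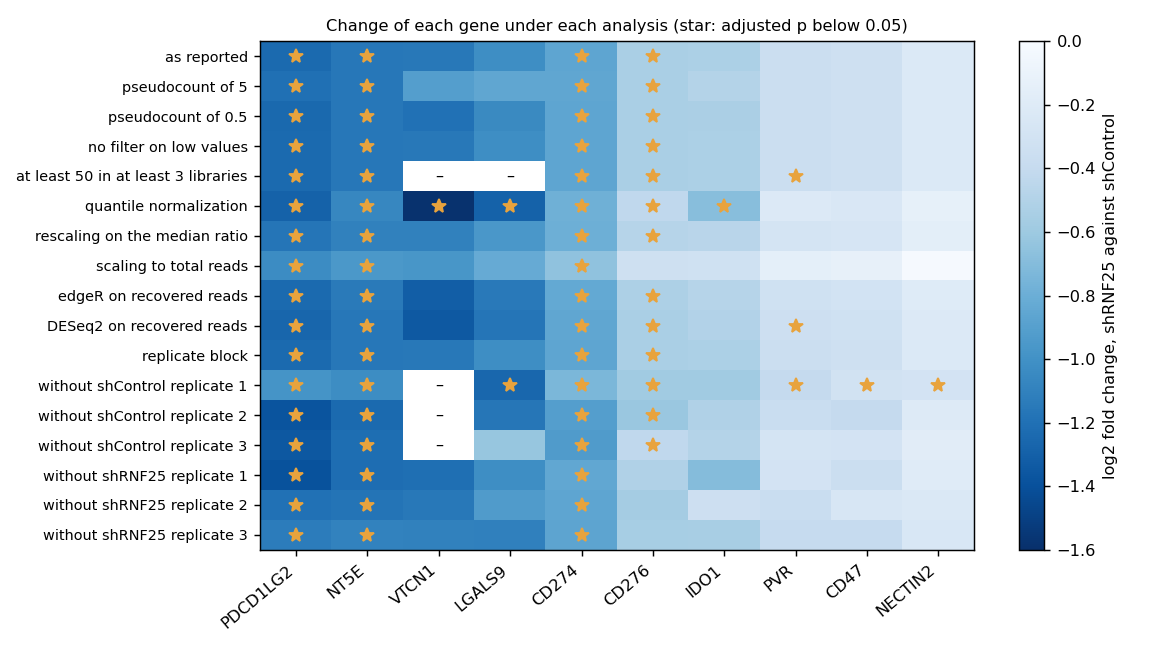
Log2 fold change (color) of each gene (columns) as reported and under each other analysis (rows), with a star where the adjusted p was below 0.05 and a dash where the gene did not pass that filter. PDCD1LG2, NT5E and CD274 carry a star in every row, and the row without shControl replicate 1 holds the most stars, 8.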

How the data were processed

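Total RNA of SW839 cells was sequenced in 3 shRNF25 and 3 shControl libraries. The authors deposited normalized counts, a signal made by dividing the reads per gene of each library by a size factor, with no correction for gene length. The submitters' processing notes name fastp, HISAT2, HTSeq and GRCh38, and the study's methods a stranded total RNA kit and DESeq2. The annotation and the strand setting of the counting are not given in the sources used here. The values were whole multiples of 1 step per library, so that whole reads were recovered for 100% of values (within 0.01 reads), and the factors equaled DESeq2's median-of-ratios factors.

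The 16554 genes that reached 10 normalized counts in 3 or more libraries were tested, and log2(normalized count + 1) was fitted with limma 3.58.1 (lmFit, eBayes with a trend; R 4.3.3), with Benjamini-Hochberg adjustment over all tested genes. The fits were tested on simulated data. Single genes and ratios were also tested by exact permutation. The alternatives were other pseudocounts (5 and 0.5), filters (none, or at least 50) and scalings, edgeR 4.0.16, DESeq2 1.42.0, the replicate number as a block and each library left out. The members and gene lists were chosen with earlier results of these data known. From each list, at most 4 genes past the threshold with the largest change were named by rule; other names were added for their role or position. Positions and exon lengths come from GENCODE 29 (GRCh38), by symbol, and upstream sequences from RefSeq (GRCh38.p14), which listed 8 members. For NECTIN2 and IDO1, 128 and 120 exon bases overlap a gene on the other strand. A gene of the interferon-γ list is counted in its list and is not reported here by itself.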

Additional observations from a re-analysis of the deposited data

How the results depend on the processing

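Every member kept a log2 fold change below 0 in each of the analyses run. Quantile normalization brought VTCN1 (-1.58), LGALS9 (-1.29) and IDO1 (-0.69) past the threshold and so 7 members in all. VTCN1 entered that fit through shControl alone, so that its call carries no weight. PVR passed with the filter of at least 50 (-0.35) and with DESeq2 (-0.34), and CD276 fell short with scaling to total reads (-0.34). That scaling, chosen after seeing the data, gave 945 lower and 3260 higher genes, or 680 and 2395 with a fold change of at least 1.5. The filter of at least 50, which tests fewer genes, left 898 higher genes with that fold change. The causes were not tested.

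Leaving out single libraries gave 826 to 2915 lower and 611 to 2614 higher genes, or 783 to 1208 and 597 to 1712 with a fold change of at least 1.5. The members past the threshold numbered 3 to 8. The log2 fold change lay between -0.61 and -0.43 for CD276, -1.26 and -0.63 for LGALS9, -0.40 and -0.28 for PVR, -0.29 and -0.18 for NECTIN2, and -0.40 and -0.25 for CD47. VTCN1 could be fitted in 3 of these 6 fits.

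The replicate numbers did not pair the libraries, since the deviations of same-numbered libraries from their group means correlated at -0.064, -0.087 and 0.047. With the replicate number as a block, 1527 genes were lower and 1557 higher, and 4 members passed. Of the other named list genes, COPS5 (adjusted p = 0.0981 in limma) and CALR (0.0554) fell short under the block. VTCN1 and LGALS9 rest on 8 to 43 reads per library. The standard errors of their log2 fold changes, 0.38 and 0.36, were above the 0.12 of CD276.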
